A study of Homo sapiens with 6 samples.

Results

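Non-homologous end joining rejoins the broken ends of DNA without a template. The genes described here are 9 that encode its core machinery and the proteins that steer breaks toward it: TP53BP1, RIF1, PRKDC, XRCC4, XRCC5, XRCC6, LIG4, NHEJ1 and DCLRE1C. They were taken by symbol from the 25330 gene symbols in the deposited count table, and all 9 were among the 14199 genes that passed the filter on low counts. The cells are MDA-MB-231, a long-established line of triple-negative breast cancer from a human donor, mesenchymal in character. Of 6 poly-A libraries, 3 carry the genotype label CTRV2 control and 3 the label RNASEH2A KO, and no group was treated. RNASEH2A encodes the catalytic subunit of RNase H2, which removes ribonucleotides built into DNA and cleaves the RNA of RNA-DNA hybrids. The RNA of each group came from 3 passages, and the make-up of the edited line, 1 clone or a pool, not given in the sources used here, limits it as a model. P-values therefore measure the spread between passages.

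In this pathway the Ku heterodimer, encoded by XRCC6 (Ku70) and XRCC5 (Ku80), threads onto a broken end and recruits the DNA-dependent protein kinase catalytic subunit, encoded by PRKDC. Artemis, the nuclease encoded by DCLRE1C, trims ends that cannot be joined directly, and ligase IV, encoded by LIG4, seals them while bound to the scaffold protein XRCC4 and to XLF, the product of NHEJ1. TP53BP1 (53BP1) and RIF1 act upstream on chromatin, where they hold back the resection of ends that would commit a break to homologous recombination. Ribonucleotides left in DNA and RNA-DNA hybrids are known sources of strand breaks, which is why the levels of these genes are of interest in cells labelled as lacking RNase H2.

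Library totals ran from 25419877 to 31596286 counts. RNASEH2A itself could not check the genotype labels: it was counted at 10, 6 and 15 in control libraries and 7, 8 and 16 in those labelled knockout. The log2 ratio between mean CPM, that is, counts scaled to library size, was -0.09. An exact two-sided permutation test on the difference of mean log2 CPM gave p = 0.8, where the lowest possible with 3 and 3 libraries is 0.1. In GENCODE 29, 40.8% of the exonic bases of RNASEH2A are shared on the same strand with THSD8, and whether that lowered its counts was not tested. Directions below rest on the labels. Replicate 1 of the knockout stood apart from its own group, at a chi-square of 34.2 and 22.2 per degree of freedom against knockout replicates 2 and 3, which were at 6.61 against each other; pairs of libraries from different groups ran from 25.0 to 37.2. Control replicate 1 was also apart from its group, less far, at 11.4 and 10.2 against control replicates 2 and 3, which were at 2.45 to each other, and its nearest knockout library was replicate 1 (26.8, against 37.2 and 35.1). The 8 markers of the line summed to 6408 to 6777 CPM in controls and 6079 to 6322 in knockouts, although SPARC, one of them, did not exceed 1.33 CPM. The oestrogen receptor gene ESR1 had 0 counts in all 6 libraries, which allows up to 3 counts per library, or 0.0949 to 0.118 CPM, counting error only.

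Before the levels, sequences of a pair of members are shown because they decide how far a read can be assigned to its gene. In GENCODE 29 on GRCh38, 93.2% of the exonic bases of the principal NHEJ1 transcript are also exons of AC068946.1 on the same strand, a readthrough gene that runs from SLC23A3 into NHEJ1. All 7 coding exons of NHEJ1, 897 bases, are found whole in its transcripts. The first of them is exon 2, chr2:219158186-219158362 on the minus strand, with the start codon in capitals. For XRCC6, 120 bases of coding sequence from coding base 5 are set against the same stretch of XRCC6P2, a processed pseudogene on chromosome X, and capitals mark the 6 mismatches.
NHEJ1 exon 2: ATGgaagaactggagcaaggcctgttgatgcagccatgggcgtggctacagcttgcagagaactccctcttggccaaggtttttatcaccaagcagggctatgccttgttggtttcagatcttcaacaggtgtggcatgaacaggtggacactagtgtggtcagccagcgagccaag
XRCC6: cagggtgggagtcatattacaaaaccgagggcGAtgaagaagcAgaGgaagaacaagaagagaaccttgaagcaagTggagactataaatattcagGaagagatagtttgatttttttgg
XRCC6P2: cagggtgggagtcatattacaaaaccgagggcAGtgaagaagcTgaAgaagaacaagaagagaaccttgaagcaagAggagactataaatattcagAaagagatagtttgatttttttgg
Every letter of the NHEJ1 exon belongs to both annotated genes, so no read within it tells them apart. With the authors' counting rule and annotation not given in the sources used here, NHEJ1's own level is uncertain, and the table has no row named AC068946.1. The Ku70 gene is in a different position. Along the full comparison its coding sequence was 97.0% identical to XRCC6P2, yet 6.60% of its 75-base stretches recur in that pseudogene, and XRCC6P2 received at most 44 counts in any library, XRCC6 at least 12632. Of the other members, TP53BP1 shares 12.7% of its exonic bases with TUBGCP4 on the opposite strand, which strand-aware counting separates, and the remaining 6 share none with another gene.

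None of the 9 end-joining genes passed the test between the libraries labelled RNASEH2A KO and the controls. By edgeR's quasi-likelihood test with Benjamini-Hochberg adjustment over all 14199 genes, 0 rose and 0 fell at an adjusted p under 0.05, against 12.1% of all tested genes called in either direction, 5.88% higher and 6.22% lower. The count was also 0 in limma-voom, where 12.0% of the same 14199 genes were called. It was 0 as well in DESeq2, run without that filter, where 2088 of 22142 genes, or 9.43%, were called. At an unadjusted p under 0.05 there was 1 member, NHEJ1, against 27.7% of all tested genes. Log2 fold changes, given throughout as knockout minus control, ran from -0.38 for NHEJ1 to 0.09 for DCLRE1C with a median of -0.06, beside a median of 0.00 over all tested genes. Of the 9, 6 were below 0 and 3 above, and the median size of change was 0.08 for the members and 0.17 for all tested genes. These sets were not matched for level: 29.1% of tested genes had a mean CPM at or below that of NHEJ1, the lowest member.

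**Figure D1:**
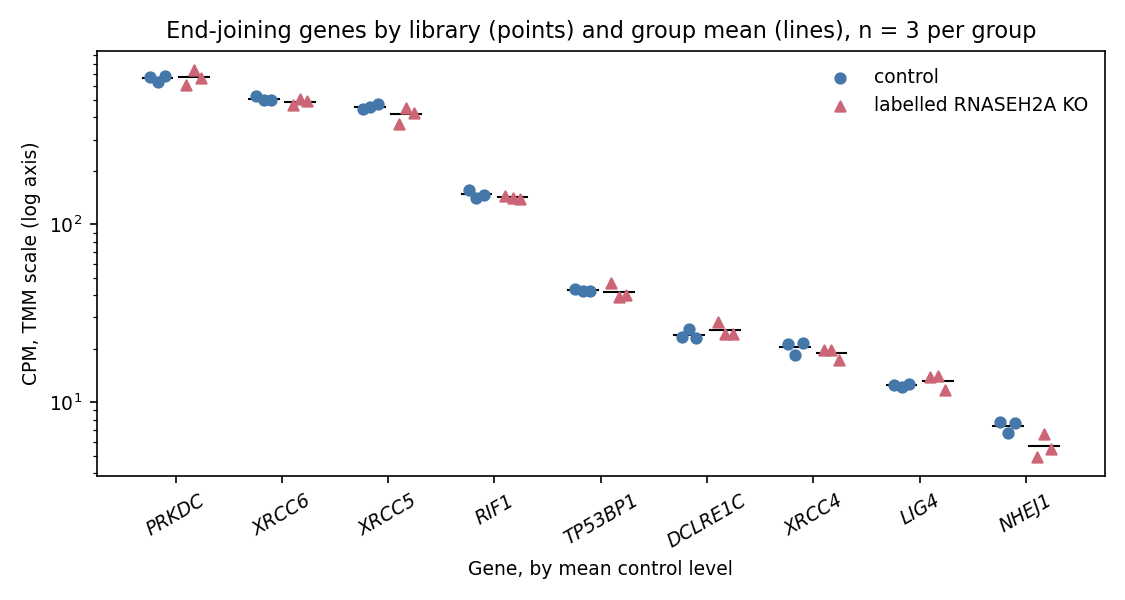
Levels of the 9 end-joining genes in CPM on the TMM scale (log axis) for each of 3 control and 3 RNASEH2A KO libraries, with group means as lines. Only the NHEJ1 points of the 2 groups do not overlap, and the genes span from at least 604.6 CPM at PRKDC to under 8 CPM at NHEJ1.

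The DNA-PK genes, which encode the first proteins to reach a break, were the most abundant. XRCC6 (chromosome 22, 41621295 to 41664041, plus strand, RefSeq on GRCh38.p14) was at 528, 501 and 501 CPM in control replicates 1, 2 and 3 and at 469, 508 and 493 in the knockout replicates. These values overlapped, and the log2 fold change was -0.06 ± 0.06 (SE; 95% interval -0.19 to 0.07; edgeR adjusted p = 0.568). XRCC5 (chromosome 2, 216109348 to 216206293, plus strand) was at 445, 456 and 477 CPM in controls and 370, 454 and 422 in knockouts. Knockout replicate 1 was the lowest library, replicate 2 lay within the control range, and the log2 fold change was -0.15 ± 0.08 (SE; 95% interval -0.32 to 0.03; edgeR adjusted p = 0.261). Leaving out knockout replicate 1 moved it to -0.07. Paired by replicate number, XRCC5 was lower in the knockout library in 3 of 3 pairs, as were RIF1 and NHEJ1. The share of all tested genes lower in 3 of 3 pairs was not counted. It is at least 17.4%, the share with every knockout library below every control. Whether the numbers pair the libraries was not settled. With the replicate block XRCC5 did not pass (edgeR adjusted p = 0.106).

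PRKDC, the kinase of the complex (chromosome 8, 47773111 to 47960136, minus strand), was at 672, 633 and 684 CPM in controls. In the knockout libraries it was at 605, 738 and 669 CPM, so the knockout group held both the lowest and the highest of the 6 values. The log2 fold change was 0.02 ± 0.08 (SE; 95% interval -0.16 to 0.19; edgeR adjusted p = 0.917), and its sign was not stable: relative to the 40 nearest tested genes, whose median was 0.10, it stood at -0.09 (adjusted p = 0.548).

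Per kilobase of principal transcript, a scale that takes transcript length into account, XRCC6 led at 185 CPM per kb over the 6 libraries. XRCC5 followed at 116 and PRKDC at 49.4. The length was that of the longest principal transcript annotated, and the isoforms these cells express were not examined. Ranks and the size of ratios between genes depend on that choice. Ku70 and Ku80 proteins pair one to one, and their transcripts stood in a ratio, per kb, of 0.607, 0.657 and 0.686 (XRCC5 to XRCC6) in controls and 0.567, 0.643 and 0.617 in knockouts. The groups overlapped (log2 difference -0.09, exact two-sided permutation p = 0.3), although the ratio was lower in the knockout in 3 of 3 same-numbered pairs (exact paired permutation p = 0.25, the smallest that 3 pairs can give). The ratio of PRKDC to XRCC6 was 0.261 ± 0.0112 in controls and 0.274 ± 0.0163 in knockouts (SD, n = 3; exact permutation p = 0.3). These and a further pair of ratios below were picked after the levels were seen, and with adjustment over the 4 of them the p-values were 0.3 for both ratios here without pairing, and 0.333 and 0.5 with it.

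The genes of the ligation complex were far lower. XRCC4 (chromosome 5, 83077547 to 83374473, plus strand), the scaffold, was at 21.2, 18.3 and 21.5 CPM in controls and 19.7, 19.6 and 17.3 in knockouts. All but knockout replicate 3 lay within the control range, and the log2 fold change was -0.11 ± 0.10 (SE; 95% interval -0.34 to 0.12; edgeR adjusted p = 0.545). LIG4 (chromosome 13, 108207442 to 108218349, minus strand), the ligase, was at 12.6, 12.1 and 12.7 CPM in controls and 13.8, 14.1 and 11.7 in knockouts. Here knockout replicates 1 and 2 were above every control and replicate 3 below every control, with a log2 fold change of 0.08 ± 0.11 (SE; 95% interval -0.17 to 0.33; edgeR adjusted p = 0.680).

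The ratio of LIG4 to XRCC4 transcripts, per kb, was 0.233, 0.259 and 0.231 in controls and 0.275, 0.282 and 0.264 in knockouts. It was higher in all 3 knockout libraries than in any control, by a log2 difference of 0.18 (exact permutation p = 0.1, the smallest without pairing; adjusted p = 0.2 over the 4 ratios). With pairing the exact permutation p was 0.25. Neither gene passed on its own, and the groups overlapped for both. Among single tested genes 33.5% had groups that did not overlap, and no such share was computed for ratios.

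NHEJ1, which encodes XLF, the partner that aligns ends beside XRCC4 (chromosome 2, 219069357 to 219160815, minus strand), was counted at 229, 192 and 192 reads in controls and 158, 184 and 154 in knockouts. On the CPM scale this was 7.73, 6.73 and 7.62 against 4.92, 6.61 and 5.49. It was the 1 member of 9 whose groups did not overlap, where 33.5% of all tested genes did not, 17.4% lower and 16.1% higher in the knockout, and the gap between the nearest libraries, control replicate 2 and knockout replicate 2, was narrow. The means were 7.36 ± 0.545 and 5.68 ± 0.861 CPM (SD, n = 3), a log2 fold change of -0.38 ± 0.15 (SE; 95% interval -0.72 to -0.03, not adjusted for the number of genes; edgeR adjusted p = 0.145). It did not pass, and the difference ran from -0.49 without knockout replicate 2 to -0.28 without knockout replicate 1. The ratio of NHEJ1 to XRCC4, per kb, was 0.283 ± 0.00572 in controls and 0.235 ± 0.0358 in knockouts (SD, n = 3; exact permutation p = 0.1; adjusted p = 0.2; paired 0.25), and its log2 difference went from -0.28 to -0.15 without knockout replicate 1.

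**Figure D2:**
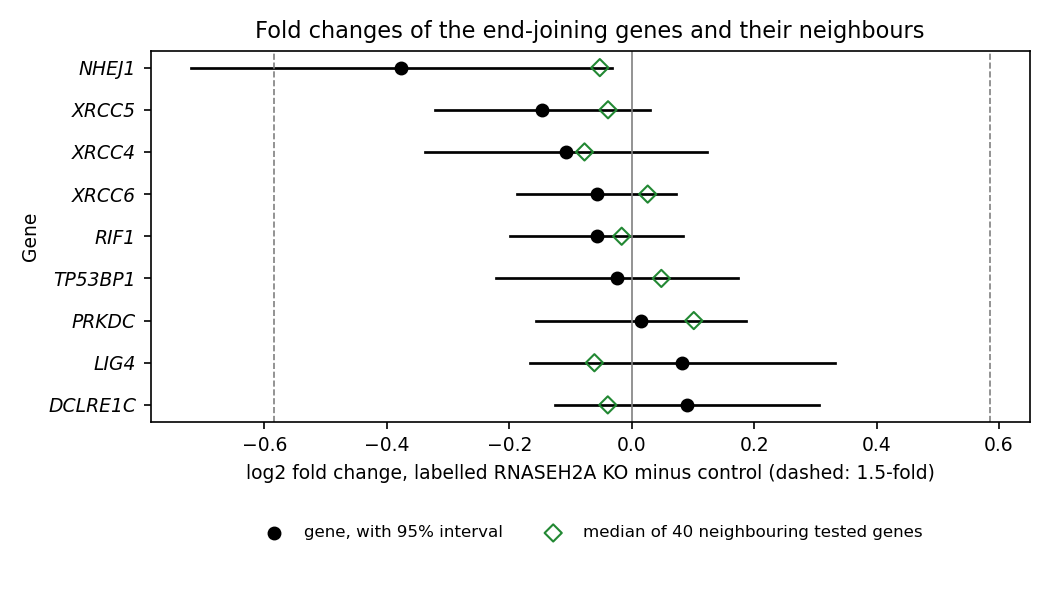
Log2 fold change of each end-joining gene (points) with its 95% interval (bars), beside the median of its 40 neighbouring tested genes (diamonds); dashed lines mark 1.5-fold. For 8 of 9 genes the interval includes 0 and lies within 1.5-fold, and NHEJ1 is the exception on both counts.

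DCLRE1C, the Artemis nuclease gene (chromosome 10, 14897359 to 14954432, minus strand), was at 23.4, 25.7 and 23.0 CPM in controls and 28.2, 24.2 and 24.4 in knockouts. Only knockout replicate 1 was above the control range, and the log2 fold change was 0.09 ± 0.10 (SE; 95% interval -0.13 to 0.31; edgeR adjusted p = 0.591). Its pseudogene DCLRE1CP1 had at most 1 count in a library.

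The chromatin factors that guard ends were as close between groups. TP53BP1 (chromosome 15, 43403061 to 43510640, minus strand) was at 43.5, 42.1 and 42.3 CPM in controls and 46.8, 39.0 and 39.9 in knockouts. The control libraries lay inside the range of the knockout libraries, and the log2 fold change was -0.02 ± 0.09 (SE; 95% interval -0.22 to 0.17; edgeR adjusted p = 0.890), with a sign that changed when knockout replicate 2 or 3 was left out. RIF1, the partner that binds phosphorylated 53BP1 (chromosome 2, 151409902 to 151534435, plus strand), was at 156, 142 and 146 CPM in controls and 145, 142 and 140 in knockouts. The groups overlapped, and its log2 fold change was -0.06 ± 0.06 (SE; 95% interval -0.20 to 0.08; edgeR adjusted p = 0.606).

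A p that misses the threshold does not show equal levels, so the intervals matter more here than the calls. The margin of the 95% interval on either side ran from 0.13 for XRCC6 to 0.34 for NHEJ1 on the log2 scale. For 8 of the 9 genes the whole interval lay within a 1.5-fold change in either direction, which is 0.58 on the log2 scale. For NHEJ1 the lower bound, -0.72, lay beyond it. Of the tested partner genes below, all but APLF, NUDT16L1, SHLD1, SHLD3, EXO1, POLQ and XRCC1 also had the whole interval within 1.5-fold. The trait is thus not particular to the members, and its share over all tested genes was not counted.

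The spread among knockout libraries was larger than among controls for 7 of 9 members, as SD over mean. The share over all tested genes was not counted, and knockout replicate 1 also stood apart over all genes, as given above. Knockout replicate 1 was the lowest of its group for 4 of them, XRCC5, XRCC6, PRKDC and NHEJ1, and the highest for 4 others, TP53BP1, RIF1, XRCC4 and DCLRE1C. Relative to the mean log2 level of knockout replicates 2 and 3 it was at -0.25 for XRCC5, -0.22 for PRKDC and -0.29 for NHEJ1, and at 0.25 for TP53BP1 and 0.22 for DCLRE1C. These departures within the knockout group were wider than the differences between the group means of the same genes, except for NHEJ1, where the difference between groups was -0.38. The part played by that library's state in the group values was not tested beyond leaving it out.

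**Figure D3:**
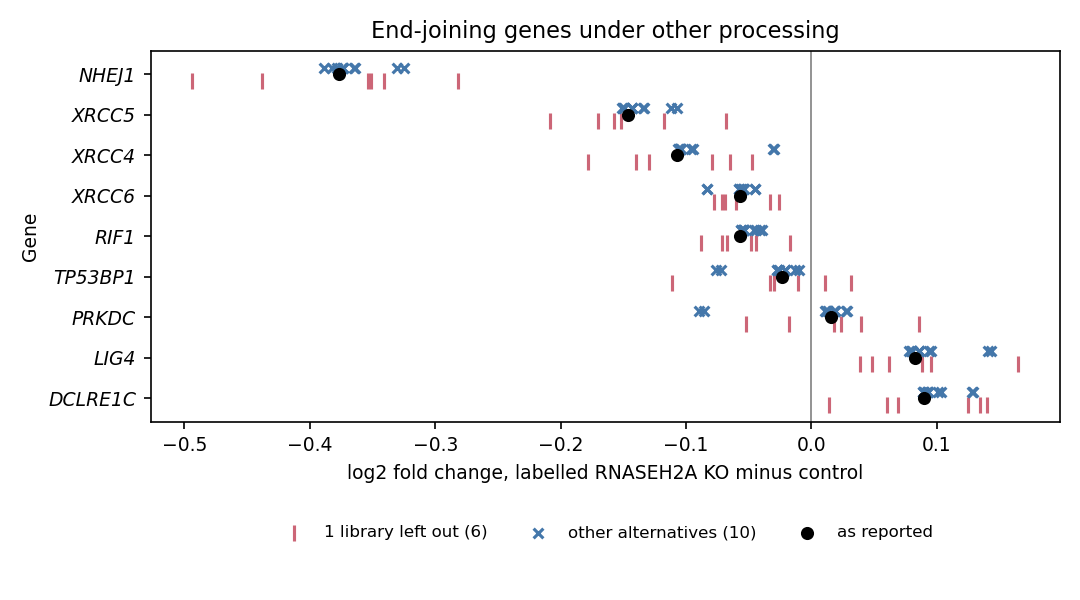
Log2 fold change of each end-joining gene as reported (black points), with 1 library left out (6 red ticks) and under 10 other ways of processing (blue crosses). PRKDC and TP53BP1 fall on both sides of 0, while NHEJ1 stays between -0.49 and -0.28.

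Neighbouring genes were examined because runs of adjacent genes shift together in these libraries. Of 14168 tested genes with a RefSeq position, 587 had a median above 0.2 over their 40 neighbours and 857 a median below -0.2. No member lay in such a run: the neighbour medians of the 9 ran from -0.08 for XRCC4 to 0.10 for PRKDC. XRCC5 and NHEJ1 lie 2.86 Mb apart on chromosome 2. Within 10 Mb of the NHEJ1 start, 78 genes were tested, with a median log2 fold change of -0.06. Of these 53, or 67.9%, were below 0, beside 49.4% of all tested genes, and 3 were called lower and 1 higher, 5.13% beside 12.1%. With its neighbours' median, -0.05, taken out, NHEJ1 was at -0.32 (edgeR adjusted p = 0.244).

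**Figure D4:**
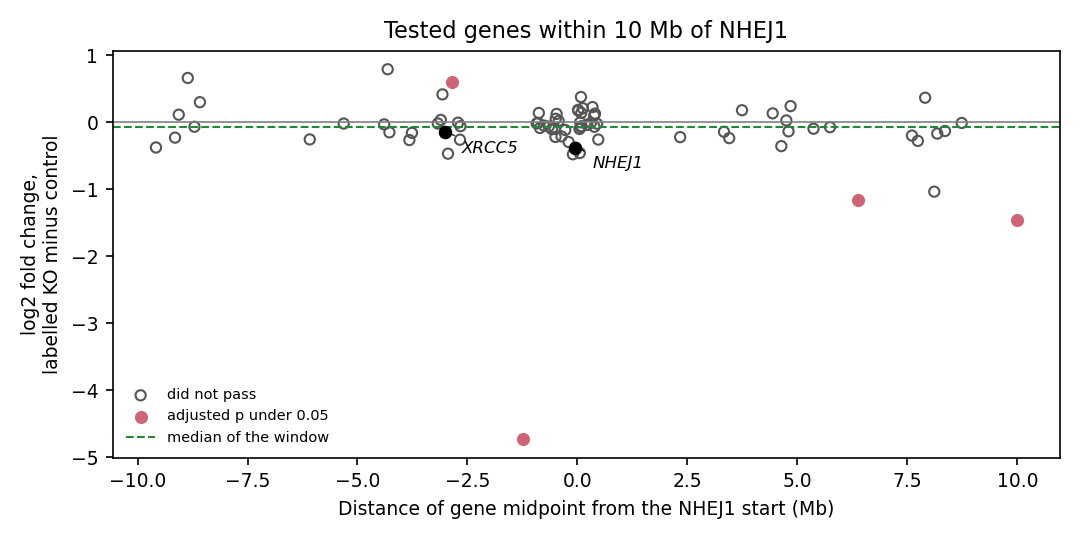
Log2 fold change of the 78 tested genes within 10 Mb of the NHEJ1 start against the distance of their midpoints, with genes past the test filled in red and XRCC5 and NHEJ1 in black. The dashed line is the window's median, -0.06, and most genes near NHEJ1 lie close to it.

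The partners of these proteins were read from 5 lists of 45 genes. Of these 43 were tested, and 2 rose and 3 fell, 11.6% of them beside the 12.1% of all tested genes. The groups did not overlap for 14 of the 43, or 32.6%, beside 33.5% of all tested genes, and their median log2 fold change was -0.03. With the replicate number as a block 10 of the 43 passed, where 21.8% of all tested genes did: the same 5 and EXO1, BRCA1, CTC1, H2AX and POLQ, of which the last 4 are named after their values were seen. With the block and the neighbour median together MDC1, NUDT16L1 and POLQ passed. With the neighbour median alone taken out 0 passed, where 6.93% of all tested genes did. In that fit 8 of 43 had an unadjusted p under 0.05, beside 3251 of 14168 over all genes. Without control replicate 3, 0 of the 43 passed, where 550 of 14517 tested genes did. The count was 1 without control replicate 2 (649 of 14481 over all genes) and 2 without control replicate 1 (1055 of 14439). It was 8 without knockout replicate 1 (3430 of 14409 over all genes). Without knockout replicate 2 the genes that passed were EXO1, MDC1, NUDT16L1, PARP1, TRIP13 and XRCC1. Without knockout replicate 3 MDC1 passed. Shares over all genes are not given here without knockout replicate 2 or 3, nor with the block and the neighbour median together. None of the 9 end-joining genes passed in any of these fits.

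Among 10 tested end processing and accessory factors 0 rose and 0 fell in edgeR, 1 had an unadjusted p under 0.05, and their median log2 fold change was -0.04. That gene was PAXX, a paralog of XRCC4 and XLF that binds Ku, at 47.1, 42.6 and 41.9 CPM in controls and 35.4, 38.2 and 38.6 in knockouts. Its groups did not overlap, and it did not pass (log2 fold change -0.23 ± 0.08 SE, edgeR adjusted p = 0.0983). APLF, named after its value was seen, was at -0.20 (edgeR adjusted p = 0.537). It passed without knockout replicate 1 (-0.44, edgeR adjusted p = 0.0430), where 3430 of 14409 tested genes did. DNTT, the template-independent polymerase of lymphoid cells, was not analysed here.

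Of 9 genes that bring 53BP1 to breaks 1 rose and 1 fell, with a median of 0.01. MDC1, the scaffold that binds phosphorylated H2AX and recruits the ubiquitin ligase RNF8, rose from 101, 89.3 and 87.6 CPM to 129, 121 and 120 (log2 fold change 0.41 ± 0.07 SE, edgeR adjusted p = 0.00793). Every knockout library was above every control. On chromosome 6 (30699807 to 30717281) the median of the genes around it was 0.17, and once that was subtracted MDC1 was at 0.24 and did not pass (adjusted p = 0.0857), though it passed with the replicate block added (0.24, adjusted p = 0.0181). It also did not pass without control replicate 2 (0.0542) or 3 (0.0583). On the opposite strand MDC1-AS1 covers 9.25% of the exonic bases of MDC1. H2AX, the histone variant that MDC1 reads, was at 0.27 (adjusted p = 0.131). It passed with the block (0.26, adjusted p = 0.0248), with no filter on low counts (0.0181) and without knockout replicate 1 (0.40, 0.000377). With its neighbours' median of 0.10 taken out H2AX was at 0.18 (adjusted p = 0.359). With the block added to that it was at 0.17 (adjusted p = 0.154). NUDT16L1, also known as TIRR, which masks the histone-binding surface of 53BP1, fell from 26.0, 25.5 and 25.5 CPM to 16.1, 21.5 and 20.5 (-0.41 ± 0.11 SE, edgeR adjusted p = 0.0462). Its neighbours were at -0.03, and with that taken out it was at -0.38, little changed, but did not pass (adjusted p = 0.0822); with the block added it passed (-0.38, adjusted p = 0.0252). The call also ended without any 1 of the controls (0.116, 0.138 and 0.144) and without knockout replicate 3 (0.115).

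Of 10 tested effectors that act with 53BP1 and RIF1 0 rose and 1 fell, with a median of -0.07. It was TRIP13, the ATPase that disassembles the shieldin complex by remodelling its subunit MAD2L2, which fell from 67.2, 60.9 and 67.1 CPM to 52.6, 56.0 and 51.0 (-0.29 ± 0.08 SE, edgeR adjusted p = 0.0347). TRIP13 lies near the end of chromosome 5 (892884 to 919348), where its 32 neighbours had a median of -0.19; with this taken out it was at -0.10 (adjusted p = 0.461). The call also ended without control replicate 1 (0.104), 2 (0.0720) or 3 (0.156) or knockout replicate 3 (0.153). The opposite-strand gene BRD9 covers 6.81% of its exonic bases. Of the shieldin genes SHLD1, SHLD2, SHLD3 and MAD2L2, 0 passed in edgeR and 0 had an unadjusted p under 0.05. CTC1, of the CST complex, was at 0.29 (adjusted p = 0.0640) and passed with the block (0.29, adjusted p = 0.0363). With its neighbours' median of 0.07 taken out it was at 0.22 (adjusted p = 0.180), and with the block added at 0.22 (0.123). TEN1, also of the CST complex, which refills resected ends, had 0 counts in all 6 libraries, and 98.9% of its exonic bases are shared on the same strand with the readthrough gene TEN1-CDK3.

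End resection competes with end joining, and of its 9 genes 0 rose and 0 fell in edgeR, 2 had an unadjusted p under 0.05, and the median was -0.03. EXO1, an exonuclease of long-range resection, had the smallest p, at 47.0, 55.2 and 53.8 CPM in controls and 35.5, 46.0 and 40.5 in those labelled knockout, a log2 fold change of -0.36 ± 0.11 (SE; edgeR adjusted p = 0.0598). It passed with the replicate block (adjusted p = 0.00466), in DESeq2 (0.0292), with no filter on low counts (0.0208) and without knockout replicate 2 (0.0312), and was at -0.18 (adjusted p = 0.354) with its neighbours' median of -0.18 taken out. BRCA1, which promotes resection, was nearly as far the other way, at 50.7, 52.3 and 53.7 CPM in controls and 56.5, 70.5 and 65.6 in knockout libraries, without overlap, a log2 fold change of 0.30 ± 0.09 (SE; edgeR adjusted p = 0.0606). It passed with the block (adjusted p = 0.0148), in DESeq2 (0.0349), with library size scaling only (0.0453), with no filter (0.0251) and without knockout replicate 1 (0.00213), and was at 0.15 (adjusted p = 0.365) with its neighbours' median of 0.15 taken out. RAD50, named after its value was seen, is annotated like NHEJ1: the readthrough gene AC116366.3 shares 90.6% of its exonic bases on the same strand. It was at 1.03 CPM per kb over the 6 libraries, where MRE11 and NBN, its partners in one complex, were at 6.96 and 21.8. NHEJ1 was at 3.11 CPM per kb, beside 12.0 for XRCC4 and 3.07 for LIG4. Whether shared exons lowered the counts of NHEJ1, RAD50 and TEN1 was not tested.

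Of 5 genes of polymerase theta end joining, the pathway that takes over where Ku and ligase IV fail, 1 rose and 1 fell, and the median was 0.03. PARP1, the sensor of strand breaks, fell from 282, 299 and 297 CPM to 215, 245 and 240 (-0.33 ± 0.07 SE, edgeR adjusted p = 0.0140). XRCC1, the scaffold of DNA ligase III, rose from 12.9, 14.1 and 12.6 CPM to 18.4, 18.0 and 18.0 (0.46 ± 0.09 SE, edgeR adjusted p = 0.0146). L34079.1 on the same strand shares 7.99% of the exonic bases of XRCC1. Both lie among genes that moved the same way, with neighbour medians of -0.17 for PARP1 on chromosome 1 and 0.17 for XRCC1 on chromosome 19. With these taken out they were at -0.15 (adjusted p = 0.205) and 0.29 (adjusted p = 0.103). Neither passed without control replicate 3 (0.0822 and 0.0832) or knockout replicate 3 (0.0610 and 0.0668), PARP1 did not without control replicate 2 (0.0786), and XRCC1 did not without control replicate 1 (0.0516). With the block and the neighbour median together they did not pass either (0.0837 and 0.0666). POLQ, the polymerase that names the pathway, was at 10.97, 8.21 and 8.81 CPM in controls and 14.2, 9.99 and 12.9 in knockout libraries. The groups overlapped, and it did not pass (0.41 ± 0.16 SE, edgeR adjusted p = 0.137). It passed with the block (0.40, adjusted p = 0.0251) and with the block and its neighbours' median of -0.01 together (0.41, adjusted p = 0.0304), and not with that median alone taken out (0.163).

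**Figure D5:**
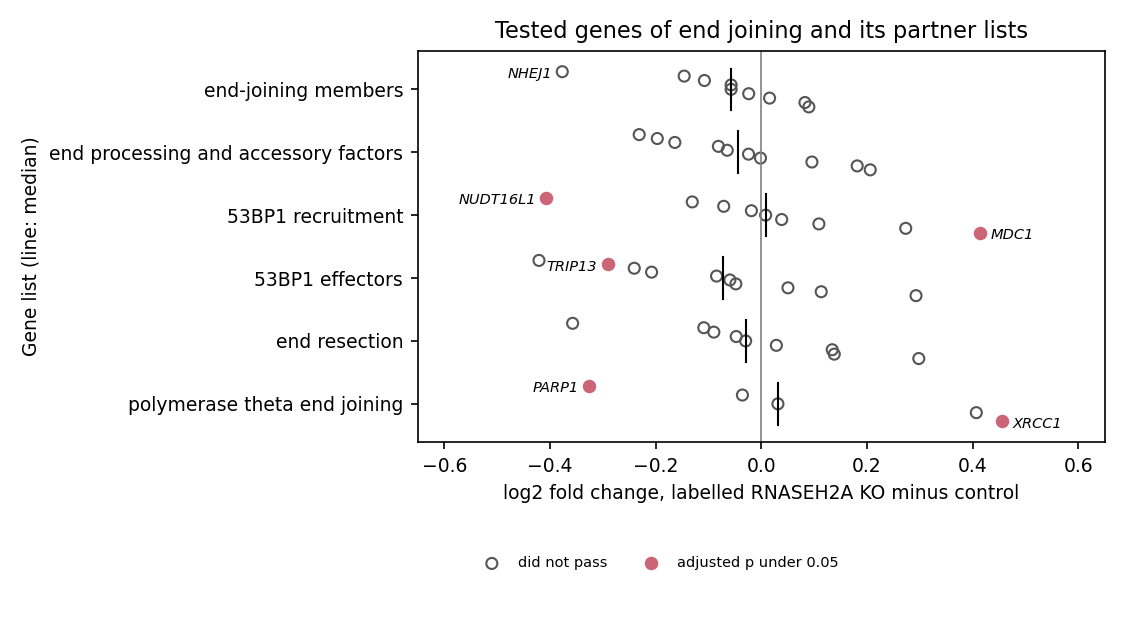
Log2 fold change of each tested gene of the end-joining members and 5 partner lists, with genes past an adjusted p of 0.05 filled in and the list medians as lines. The 5 filled genes, MDC1, XRCC1, NUDT16L1, TRIP13 and PARP1, lie in 3 of the partner lists, and none is an end-joining member.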

How the data were processed

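The submitters' processing notes name FastQC, STAR version 2 and GRCh38. A counting tool, strand setting and annotation were not given in the sources used here. One deposited table holds raw counts per gene symbol, per the file headers and values. A second table by the authors holds log2 CPM, whose scaling and prior count these sources do not state, and served 1 alternative. The members and lists were chosen with earlier results of these data known. Groups came from the genotype label and replicate numbers from the titles.

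Counts were tested with edgeR 4.0.16 in R 4.3.3: filterByExpr, TMM scaling, the quasi-likelihood F test with no covariate, two-sided, and Benjamini-Hochberg adjustment over 14199 genes, with calls at an adjusted p under 0.05. The SE is the log2 fold change divided by the square root of F, and 95% intervals use the test's degrees of freedom. The test was tried on simulated counts. The text names the 9 members and, from each of 5 partner lists, the genes called (at most 4) or, where none was, the 1 with the smallest p. Markers of other cell types were summed: luminal genes reached 30.1 to 39.6 CPM, nearly all GATA3, and leukocyte, endothelial and fibroblast genes at most 4.91, 0.713 and 28.0 CPM.

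Deviations from the group means in libraries of the same number correlated across genes at 0.43, 0.23 and 0.13 for replicates 1, 2 and 3. Control replicate 3 with knockout replicate 2 was at 0.23, and control replicate 2 with knockout replicate 3 at 0.20. Replicate 1 of each group correlated negatively with the other numbers of the other group. Only replicate 1 was thus set apart, and whether numbers 2 and 3 pair the libraries was not settled. A fit with the replicate block was therefore an alternative only. Others were DESeq2 1.42.0, limma-voom (limma 3.58.1), RLE factors, library size only, no filter, a mean of 1 CPM, a test against 1.5-fold (glmTreat), the neighbour median as an offset, limma on the deposited log2 CPM, and each library left out. Neighbours were the 20 nearest tested genes on each side with a RefSeq position (GRCh38.p14); 14168 of 14199 had one. Exons and transcript lengths are from GENCODE 29.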

Additional observations from a re-analysis of the deposited data

How the results depend on the processing

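None of the 9 end-joining genes passed under any of 17 alternatives, of which 6 left out 1 library; the smallest adjusted p among them was 0.0833, for NHEJ1 without knockout replicate 2, and 0 to 2 members had an unadjusted p under 0.05. Signs changed for PRKDC, which was at -0.0857 with the neighbour median as offset, at -0.0897 with the replicate block and that offset together (a combination added after the data were seen) and between -0.0520 and 0.0855 when 1 library was left out, and for TP53BP1, between -0.11 and 0.0313 when 1 library was left out. The replicate block changed no call among the members: NHEJ1 was at -0.38 (adjusted p = 0.0993) and XRCC5 at -0.15 (adjusted p = 0.106).

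Over all genes 1718 were called; the count was 3099 with the replicate block, 982 with the neighbour median as offset, 153 against a 1.5-fold change, and 524 to 3430 when 1 library was left out. Library size scaling alone gave 899 higher and 801 lower, beside 835 and 883. Of the 43 partner genes 5 were called. Alternatives were applied to them after the data were seen. These gave 10 with the replicate block, 8 with no low-count filter (2246 of 22142 over all genes) and 3 with the block and the neighbour offset. The count was 0 with the neighbour offset, 0 against a 1.5-fold change, and 0 to 8 when 1 library was left out. The log2 ratio of RNASEH2A ran from -0.59 to 0.39 when 1 library was left out. The causes were not tested. NHEJ1 had 3 libraries a group and 154 to 229 counts per library. Before adjustment for the number of genes, differences below about its interval's half-width of 0.34 could not be told from 0. After adjustment the limit was wider, as NHEJ1 at -0.38 did not pass (edgeR adjusted p = 0.145).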
